A study of Mus musculus with 43 samples.

Results

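The 5 genes described here, Pcgf5, Pcgf3, Auts2, Fbrs and Fbrsl1, encode PCGF5, PCGF3 and the subunits that assemble with them in one form of Polycomb repressive complex 1 (PRC1). They were picked by gene symbol, with earlier results of these data known. All 5 were found in each of the 3 deposited tables, out of 35869 gene symbols over the series. The 43 RNA-seq libraries were from mouse full-grown oocytes and from morulae. The first set held 2 libraries of PRC1 catalytic-dead oocytes (PRC1-CD) and 2 of PRC1-WT oocytes, each made from 10 pooled oocytes. The second set held 3 libraries each of Pcgf1/6 double knockout oocytes (DKO), oocytes that lack Pcgf1, Pcgf6 and Mll2 (TKO) and wild-type oocytes (WT). The third held 10 libraries each of maternal double knockout (matDKO), maternal triple knockout (matTKO) and wild-type (WT) morulae, in which, by the labels, the loss was on the mother's side. The Cre line, the age of the females, the strain and the number of morulae per library are not given in the sources used here. Full-grown oocytes no longer divide and transcribe little, so their RNA is largely what was stored during growth.

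PRC1 places ubiquitin on lysine 119 of histone H2A, and each form of the complex is built on a single PCGF protein, which pairs with the RING-finger enzyme RING1 or RNF2. PCGF3 and PCGF5 are closely related proteins whose complexes hold RYBP or YAF2, casein kinase 2 and, as alternative subunits, AUTS2, FBRS or FBRSL1. In mouse embryonic stem cells they place much of the widespread H2A ubiquitin, and in X inactivation they are brought to the chromosome by the RNA-binding protein HNRNPK together with Xist RNA. AUTS2 has been reported, in neurons, to turn the complex towards activation through p300. PCGF1 and PCGF6, whose genes are targeted in the knockout oocytes, define the other variant forms. Protein was not measured in the data used here. MLL2, encoded by Kmt2b, is a histone H3K4 methyltransferase. The question is whether the RNA of the PCGF3/5 subunits differed in oocytes labelled as Pcgf1/6 knockout or PRC1 catalytic dead.

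The promoters of Pcgf5 and Fbrs are shown because these 2 genes had the largest changes among the members. Each window runs from 250 bases before to 50 bases after a RefSeq transcript start in GRCm38.p6, 5′ to 3′ on the plus strand, with every CG dinucleotide in capitals. CG-rich promoters are the usual binding ground of variant PRC1 and MLL2. The Pcgf5 window lies at chr19:36348079-36348378 and the Fbrs window at chr7:127478708-127479007.
Pcgf5: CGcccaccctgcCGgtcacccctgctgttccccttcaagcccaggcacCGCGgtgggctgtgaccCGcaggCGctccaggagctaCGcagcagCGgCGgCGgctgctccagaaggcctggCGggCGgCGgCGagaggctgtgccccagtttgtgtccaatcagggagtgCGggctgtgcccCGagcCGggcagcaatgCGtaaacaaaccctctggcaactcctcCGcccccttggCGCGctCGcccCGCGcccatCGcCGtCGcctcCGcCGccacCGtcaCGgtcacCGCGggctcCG
Fbrs: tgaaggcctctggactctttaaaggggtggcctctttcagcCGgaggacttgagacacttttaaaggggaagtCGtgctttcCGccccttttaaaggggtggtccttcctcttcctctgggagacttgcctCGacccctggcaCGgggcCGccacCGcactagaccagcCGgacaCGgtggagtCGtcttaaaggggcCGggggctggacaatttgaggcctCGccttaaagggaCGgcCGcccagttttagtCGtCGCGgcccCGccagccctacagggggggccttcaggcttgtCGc
The Pcgf5 window held 34 CG and 73.0% G+C, and the Fbrs window 19 CG and 62.0% G+C. Of all 32851 RefSeq windows of this length, 7.7% held as many CG as the Pcgf5 window or more, and 28.1% as many as the Fbrs window or more. The median window held 7, and 94.6% held at least 1. Of the other Pcgf5 starts, the one at 36409748 had 35 CG in its window and the one at 36379067 had 5. Pcgf3 had 23 CG, and the 2 Fbrsl1 starts had 27 and 26. In all, 4 of the 5 genes matched a window. These counts describe letters only, since no binding or methylation was measured in the data used here.

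Levels are given in RPKM for oocytes and, by the sums of its table, in TPM for morulae; both units are scaled to transcript length, and none of the tables shows the sequencing depth. Changes are log2 differences of value + 1, tested with limma over all genes of a table that reached a mean of 1 in at least 1 group, and a gene is called changed at a Benjamini-Hochberg adjusted p under 0.05. A fold on this scale understates the change of low genes. Each library had 10902 to 13086 genes at 1 or above. The 8 oocyte markers all averaged at least 1 RPKM in every oocyte group, and the 6 morula markers at least 1 TPM in every morula group. Pcgf1 averaged 12.3 ± 1.47 RPKM in DKO oocytes, 12.2 ± 1.52 in TKO oocytes and 1108 ± 39.9 in WT oocytes (SD, n = 3 each). Pcgf6 averaged 57.1 ± 2.77 RPKM in DKO, 72.2 ± 9.86 in TKO and 154 ± 5.65 in WT oocytes, so a sizeable part of its RNA was still counted in both mutants. Kmt2b averaged 1.14 ± 0.148 RPKM in TKO and 4.85 ± 0.377 in WT oocytes. In morulae Pcgf1 was lower in matDKO, by 1.19 ± 0.21 on the log2 scale (limma adjusted p = 0.00184), but not called in matTKO (-0.70, limma adjusted p = 0.115). Pcgf6 was called in neither (-0.19 in matDKO, limma adjusted p = 0.565, and -0.36 in matTKO, limma adjusted p = 0.353), and Kmt2b in matTKO averaged 6.87 TPM against 6.69 in WT (limma adjusted p = 0.973). In the second PRC1-CD library the tissue label says embryo where its title and stage say oocyte. The 8 oocyte markers summed to 8096 RPKM or more in both PRC1-CD libraries, and to at most 44.0 TPM in any morula library. The 6 morula markers summed to at most 39.7 RPKM in both PRC1-CD libraries, and to at least 251 TPM in every morula library. By these sums the second PRC1-CD library is like the oocytes. There were 5 morula libraries, 3 of matDKO and 2 of matTKO, that correlated with the table's median profile below 0.94.

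In wild-type oocytes all 5 genes were expressed at low to middling levels. Fbrsl1 was highest at 16.8 ± 1.62 RPKM, followed by Auts2 at 9.69 ± 0.368, Pcgf3 at 6.34 ± 0.499, Pcgf5 at 6.18 ± 0.749 and Fbrs at 3.55 ± 0.219 (SD, n = 3). Pcgf3 and Pcgf5 stood within their spread of each other, and the other neighbours in this order were further apart than their SDs. In rank, 67.1% of the tested genes lay below Fbrsl1, 47.4% below Pcgf5 and 36.2% below Fbrs. The PRC1-WT oocytes kept Fbrsl1 on top and Fbrs at the bottom, with 17.0 ± 2.94 and 4.43 ± 1.29 RPKM (SD, n = 2).

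Pcgf5 was the only member called in every oocyte comparison, though the call in TKO against WT was lost in 7 of 14 other settings. The level of Pcgf5 was higher in catalytic-dead, double knockout and triple knockout oocytes than in their controls. The triple knockout stood between double knockout and WT. In the plot of oocyte levels its mutant and control libraries do not overlap in any set. The share of all genes whose groups do not overlap was not counted. A lack of overlap, here and below, therefore only describes the libraries, and groups this small often separate by chance.

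**Figure D1:**
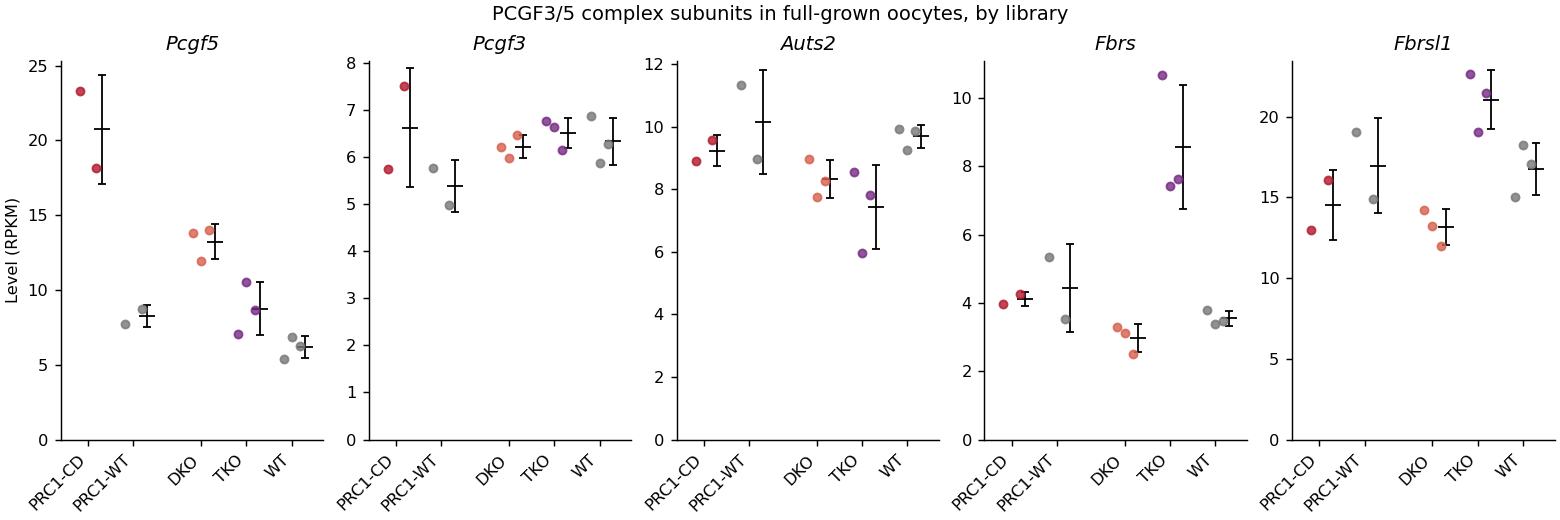
Levels in RPKM (vertical axes, from 0) of the 5 genes in each oocyte library, 1 panel per gene, with PRC1-CD, PRC1-WT, DKO, TKO and WT oocytes from left to right. Points are libraries, and the short horizontal marks with whiskers are group means with SD; the Pcgf5 libraries lie at 18.17 to 23.29 in PRC1-CD against 7.73 to 8.75 in PRC1-WT, and those of Pcgf3 overlap in every comparison.

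In the catalytic-dead set Pcgf5 stood at 23.29 and 18.17 RPKM in the PRC1-CD libraries and at 7.73 and 8.75 RPKM in the PRC1-WT libraries. Both mutant libraries were above both controls. The log2 change was 1.23 ± 0.19 (SE), a 2.34-fold rise with a limma adjusted p of 0.00409. Pcgf5 was the 1 member of 5 called there, where 22.9% of 13376 tested genes were called, 17.3% higher and 5.61% lower. Without PRC1-CD replicate 1 the change was 1.05 and the limma adjusted p 0.0727. The summed granulosa cell markers moved with the same contrast, at 39.5 to 45.2 RPKM in PRC1-CD against 20.6 to 20.9 in PRC1-WT. Of the 10 listed, 4 averaged at least 1 RPKM in PRC1-CD and 2 in PRC1-WT. Cyp19a1, the highest of them in both groups, averaged 17.2 RPKM in each (limma adjusted p = 0.993). Of the 4 markers tested, 3 were called higher: Fshr averaged 15.3 RPKM in PRC1-CD and 0.55 in PRC1-WT, Cyp11a1 7.04 in PRC1-CD and 2.52 in PRC1-WT, and Inha 1.63 in PRC1-CD and 0.285 in PRC1-WT. The 5 blood and stroma markers summed to 11.7 to 12.8 RPKM in PRC1-CD against 9.34 to 11.0 in PRC1-WT. Among them Dcn was called higher (5.42 RPKM in PRC1-CD and 1.0 in PRC1-WT, limma adjusted p = 0.000957). Pecam1 went the other way without a call (6.76 in PRC1-CD and 9.17 in PRC1-WT, limma adjusted p = 0.173). Hbb-bs, Ptprc and Col1a1 did not pass 0.03 RPKM in either group. The granulosa markers not tested were near the floor. Vim averaged 0.51 RPKM in PRC1-CD and 0.055 in PRC1-WT, Gja1 0.34 and 0.055, and Krt18 0.11 and 0.015. Inhba averaged 0.14 RPKM in PRC1-CD and 0.115 in PRC1-WT, and Foxl2 0.065 (at most 0.10) and 0. Amh was listed at 0 in both PRC1-CD libraries and averaged 0.025 RPKM in PRC1-WT. The part of these markers in the Pcgf5 change was not tested.

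Pcgf5 also rose in the Pcgf1/6 double knockout oocytes, which still held Pcgf6 RNA as given above. Its levels were 13.78, 11.91 and 14.00 RPKM in DKO oocytes against 5.39, 6.88 and 6.27 in WT oocytes. The lowest DKO library was far above the highest WT library. The log2 change was 0.99 ± 0.14, a 1.985-fold rise (limma adjusted p = 0.000683), with a limma adjusted p between 0.000383 and 0.00402 over all 14 other settings tried. As values are relative to each library, more Pcgf5 RNA per oocyte and less of other RNA cannot be told apart in these bulk samples. The summed granulosa markers were at 18.1 to 20.7 RPKM in DKO against 24.5 to 28.3 in WT oocytes, most of it Cyp19a1. Of the 4 tested, Inha (0.74, limma adjusted p = 0.0418) and Cyp11a1 (0.44, limma adjusted p = 0.046) were called higher in DKO and Cyp19a1 (-0.60) lower. With quantile scaling 0 of the 4 were called higher and 2 lower, and with median-ratio scaling 1 higher and 1 lower. The 5 blood and stroma markers summed to 6.05 to 8.03 RPKM in DKO against 9.35 to 10.7 in WT oocytes. Of these, Dcn was called lower (-1.11, limma adjusted p = 0.012) and Pecam1 was not called (-0.26, limma adjusted p = 0.127). The part of both marker lists in the Pcgf5 change was not tested. In rank, 62.5% of tested genes lay below Pcgf5 in DKO and 47.4% in WT oocytes.

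In the triple knockout, in which Mll2 is targeted as well, Pcgf5 was at 7.05, 10.56 and 8.65 RPKM in TKO oocytes. These libraries lay below all 3 DKO libraries and above all 3 WT libraries. Against DKO the log2 change was -0.56 ± 0.14 (limma adjusted p = 0.00841, and called in all 14 other settings), a test of the difference between both mutants themselves. Against WT it was 0.43 ± 0.14 (limma adjusted p = 0.0264), but this call was lost in 7 of 14 other settings, among them quantile and median-ratio scaling, where the change was 0.34 and 0.33 with a limma adjusted p of 0.0721 and 0.0638.

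Pcgf3, the close relative of Pcgf5, passed no test in any comparison. It stood at 6.22, 5.98 and 6.47 RPKM in DKO oocytes, at 6.76, 6.64 and 6.15 in TKO oocytes and at 6.87, 5.88 and 6.27 in WT oocytes. All 3 groups overlapped. The log2 change was -0.02 in DKO, with a 95% interval of -0.23 to 0.19, and 0.04 in TKO, with an interval of -0.17 to 0.24; both changed sign under some settings. In the catalytic-dead set Pcgf3 had 5.74 and 7.52 RPKM in PRC1-CD against 5.78 and 4.99 in PRC1-WT oocytes, a change of 0.25 with an interval of -0.21 to 0.71. That interval lies below the change of Pcgf5 in the same oocytes, though its width with 2 libraries a group leaves room for a modest rise. The ratio of Pcgf5 to Pcgf3 was accordingly 3.24 ± 1.16 in PRC1-CD against 1.545 ± 0.294 in PRC1-WT (SD, n = 2 each), and 2.12 ± 0.117 in DKO oocytes, 1.35 ± 0.279 in TKO oocytes and 0.985 ± 0.193 in WT oocytes (SD, n = 3 each).

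The 3 alternative subunits went different ways in the knockout oocytes. Fbrs, the mouse fibrosin gene, had 3.29, 3.12 and 2.51 RPKM in DKO, 10.67, 7.41 and 7.63 in TKO and 3.80, 3.38 and 3.48 in WT oocytes. The TKO libraries stood apart above the other 6, and the DKO libraries lay just below WT. Fbrs rose by 1.06 ± 0.14 on the log2 scale in TKO against WT (2.08-fold, limma adjusted p = 0.000225) and by 1.26 ± 0.14 against DKO (2.39-fold, limma adjusted p = 9.89e-05). Both calls held in all 14 other settings. The 5 blood and stroma markers summed to 11.5 to 15.9 RPKM in TKO against 9.35 to 10.7 in WT oocytes, with Pecam1 higher (11.2 in TKO and 7.61 in WT) and Dcn at 1.83 in TKO and 2.42 in WT. The granulosa markers summed to 23.3 to 27.2 RPKM in TKO against 24.5 to 28.3 in WT, with Fshr called higher (6.41 in TKO and 0.477 in WT) and Cyp19a1 called lower (16.2 in TKO and 23.3 in WT). The part of these markers in the Fbrs change was not tested. In DKO against WT the log2 change of -0.20 ± 0.14 was not called (limma adjusted p = 0.32), and in the catalytic-dead set Fbrs had 3.97 and 4.25 RPKM in PRC1-CD against 5.34 and 3.52 in PRC1-WT, which overlap.

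Fbrsl1, the gene of the fibrosin-like protein, differed between the mutants. Its levels were 14.21, 13.24 and 11.98 RPKM in DKO, 22.64, 19.03 and 21.49 in TKO and 15.02, 18.22 and 17.09 in WT oocytes. The 3 groups did not overlap, with DKO lowest and TKO highest. TKO exceeded DKO by 0.64 ± 0.10 on the log2 scale (1.56-fold, limma adjusted p = 0.000744), in all 14 other settings too. Against WT, the fall of 0.33 ± 0.10 in DKO (limma adjusted p = 0.0373) and the rise of 0.31 ± 0.10 in TKO (limma adjusted p = 0.0281) were less stable, with the calls lost in 6 and 7 of 14 other settings. In the catalytic-dead set Fbrsl1 had 13.00 and 16.07 RPKM in PRC1-CD against 19.04 and 14.88 in PRC1-WT oocytes, an uncalled change of -0.21.

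Auts2, the gene of the subunit tied to neuronal development, was at 8.96, 7.74 and 8.26 RPKM in DKO, 8.54, 5.95 and 7.82 in TKO and 9.94, 9.27 and 9.87 in WT oocytes. All mutant libraries were below all WT libraries. The change of -0.35 ± 0.12 in TKO passed the test (limma adjusted p = 0.0336) but was lost in 6 of 14 other settings, and that of -0.20 ± 0.12 in DKO did not pass (limma adjusted p = 0.249). In PRC1-CD oocytes it was at 8.89 and 9.58 RPKM, against 11.32 and 8.98 in PRC1-WT.

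Counted over the 5 genes, DKO oocytes had 1 higher and 1 lower than WT, where 28.8% of 12873 tested genes were called, 17.5% higher and 11.3% lower. TKO oocytes had 3 higher and 1 lower than WT, where 51.3% of genes were called, 31.2% higher and 20.1% lower, but 1 and 1 under either other scaling. TKO against DKO had 2 higher and 1 lower, where 48.6% were called, 26.8% higher and 21.8% lower. With these shares of all genes called, and only 5 genes counted, none of these counts, in DKO or TKO, is a result about the 5 genes. The median log2 change of the 5 was -0.07 in PRC1-CD, -0.20 in DKO and 0.31 in TKO, beside 0.04, 0.03 and 0.09 over all genes tested.

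**Figure D2:**
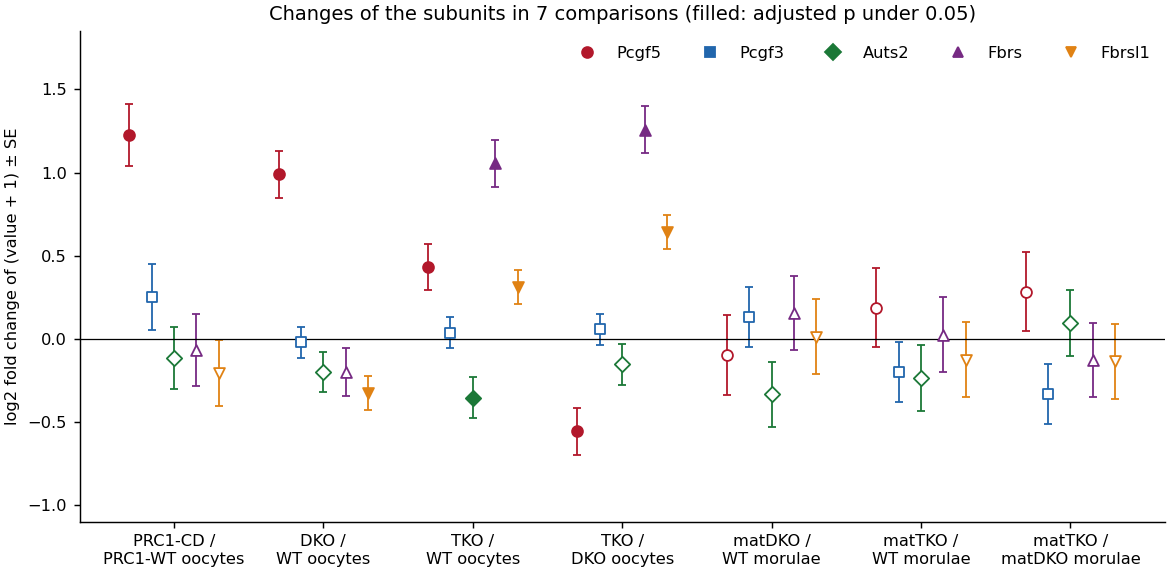
Log2 change of value + 1 with its SE (vertical axis) for each of the 5 genes in each of the 7 comparisons (horizontal axis), filled where the limma adjusted p was under 0.05. Pcgf5 lies at 1.23 in PRC1-CD and 0.99 in DKO oocytes, Fbrs at 1.06 in TKO oocytes, and no morula point is filled.

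Set against the whole PCGF family, the RNA of Pcgf3 and Pcgf5 remained a small part in oocytes. The 6 PCGF genes together summed to 167 ± 12.7 RPKM in DKO oocytes, 214 ± 3.60 in TKO oocytes and 1360 ± 42.6 in WT oocytes (SD, n = 3 each), most of the drop being Pcgf1. Pcgf3 and Pcgf5 together reached 19.4 ± 1.37 RPKM in DKO oocytes, 15.3 ± 1.74 in TKO oocytes and 12.5 ± 0.251 in WT oocytes. The sum of this pair was thus 6.93 RPKM higher in DKO and 2.75 RPKM higher in TKO than in WT, beside sums of all PCGF genes that changed by -1193 and -1146 RPKM. As a share of the PCGF sum the pair was 11.7% ± 1.13 in DKO oocytes, 7.15% ± 0.733 in TKO oocytes and 0.921% ± 0.0182 in WT oocytes; Pcgf1 is in the denominator, so its loss alone raises this share. Bmi1, the PCGF4 gene of canonical PRC1, made up the largest share in both mutants, with 46.6% in DKO oocytes, 53.3% in TKO oocytes and 6.35% in WT oocytes. Pcgf6 came next, with 34.2% in DKO oocytes, 33.8% in TKO oocytes and 11.3% in WT oocytes. The loss of Pcgf1 from the denominator raises these shares too. In level, Bmi1 averaged 78.2 RPKM in DKO, 113.8 in TKO and 86.3 in WT oocytes. Its log2 change against WT was -0.15 in DKO, not called (limma adjusted p = 0.292). In TKO it was 0.39 and called (limma adjusted p = 0.00843). In the catalytic-dead set, where Pcgf1 and Pcgf6 are intact, the pair was 1.48% ± 0.201 in PRC1-CD and 0.864% ± 0.0592 in PRC1-WT (SD, n = 2 each).

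**Figure D3:**
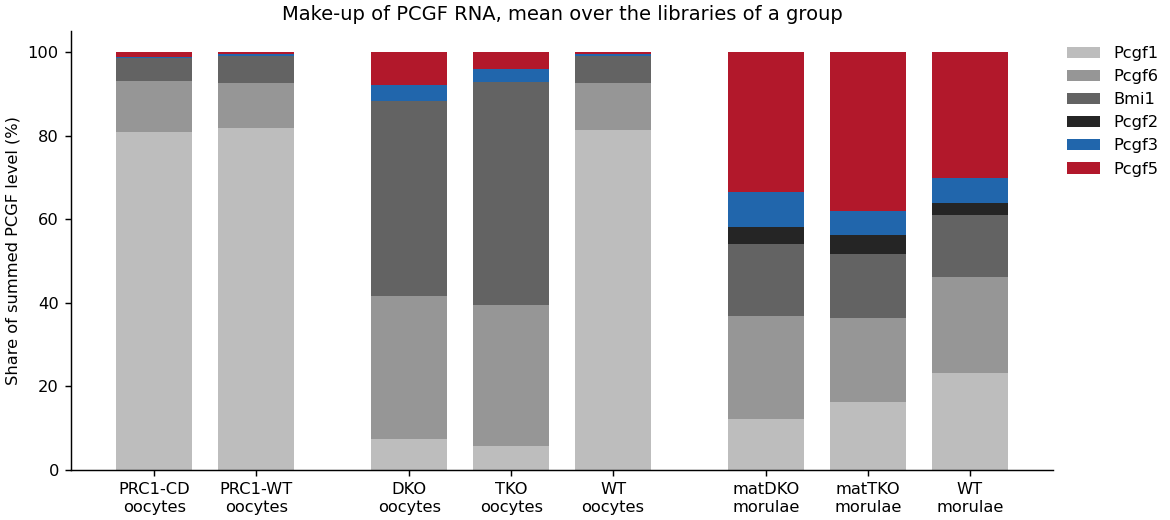
Share of each PCGF gene in the summed level of the 6 PCGF genes (vertical axis, percent from 0 to 100), as the mean over libraries, for each oocyte and morula group with mutants left of their control. Pcgf3 plus Pcgf5 is 11.7% in DKO and 0.921% in WT oocytes, and 42.0% in matDKO and 36.1% in WT morulae.

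The list of other subunits and binding partners held 12 genes. In TKO against WT, 6 of 11 tested rose and 1 fell, beside 31.2% and 20.1% of all genes, and with either other scaling 5 rose and 3 fell. With 51.3% of all genes called there, this count is no result about the partners. All 3 casein kinase 2 genes were among those that rose: Csnk2a2, a catalytic subunit, averaged 43.1 ± 6.41 RPKM in TKO and 22.5 ± 2.49 in WT (log2 change 0.90 ± 0.13, limma adjusted p = 0.000294). Csnk2a1, the other catalytic subunit, averaged 30.5 ± 2.05 in TKO, 15.7 ± 0.352 in DKO and 20.3 ± 1.55 in WT. It was above WT in TKO (0.56 ± 0.08, limma adjusted p = 0.000379) and below it in DKO (-0.35 ± 0.08, limma adjusted p = 0.0109). Rybp, which binds RING1 and RNF2 in variant PRC1, had the same order, with 13.2 ± 0.809 RPKM in TKO, 7.58 ± 0.146 in DKO and 9.51 ± 0.511 in WT. It rose by 0.43 ± 0.08 in TKO (limma adjusted p = 0.002) and fell by 0.29 ± 0.08 in DKO (limma adjusted p = 0.0273).

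Dcaf7, a scaffold protein gene, and Csnk2b, the regulatory casein kinase subunit, also rose in TKO, by 0.62 ± 0.09 and 0.47 ± 0.07 on the log2 scale. Hnrnpk fell by 0.30 ± 0.08 there. In DKO against WT 1 of 11 rose and 2 fell, beside 17.5% and 11.3% of all genes, and the rise, of Hnrnpk, was lost with either other scaling. Against DKO, TKO oocytes had 6 of 11 higher and 2 lower, beside 26.8% and 21.8% of all genes, the lower ones being Hnrnpk and Yaf2. In PRC1-CD oocytes 0 of 12 passed in limma, beside 22.9% of all genes, with 2 at an unadjusted p under 0.05, Dcaf7 (-0.53, limma adjusted p = 0.0728) and Nrf1 (-0.47, limma adjusted p = 0.078). Quantile scaling called the first of these lower and median-ratio scaling both. Rnf2, the RING enzyme gene, averaged 38.5 RPKM in DKO, 33.6 in TKO and 38.0 in WT oocytes and was called in none of these. Ring1 was near the floor in this table, at 0.02 to 0.06 RPKM in WT, but averaged 3.09 in PRC1-CD and 3.20 in PRC1-WT oocytes of the other table, so it was not tested in the knockout oocytes.

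**Figure D4:**
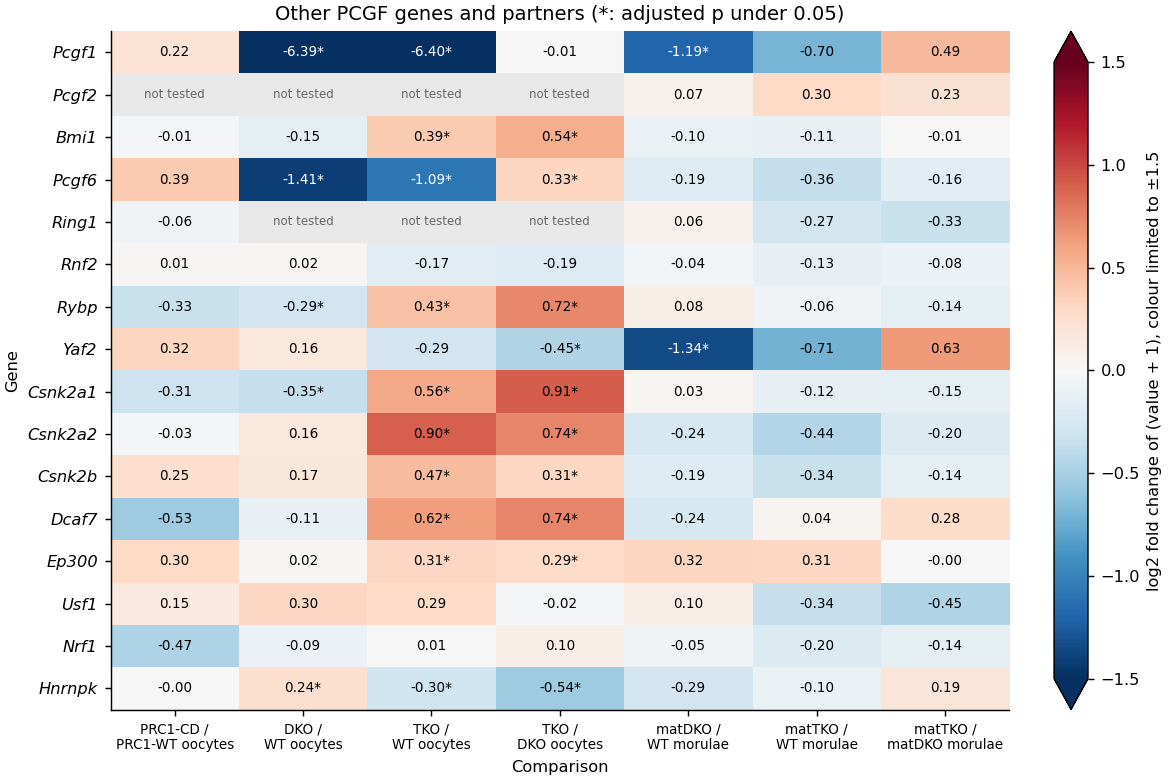
Log2 change of value + 1 (colour and printed value) of each partner and other PCGF gene (rows) in each of the 7 comparisons (columns), with an asterisk where the limma adjusted p was under 0.05. Csnk2a2 is at 0.90 and Csnk2a1 at 0.56 in TKO oocytes against WT, and Yaf2 at -1.34 in matDKO morulae.

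The genes next to Pcgf5 and Fbrs on the chromosome were read for the same comparisons. Pcgf5 (chromosome 19, 36348329 to 36460970) has Hectd2, a ubiquitin ligase gene, 93155 bases beyond its end. Hectd2 averaged 14.7 RPKM in DKO, 10.1 in TKO and 15.2 in WT oocytes, and was called lower in TKO (-0.54 ± 0.10, limma adjusted p = 0.00142), with no call in DKO (-0.04) or PRC1-CD (-0.20). Ankrd1, on the other side, was at or near 0 in oocytes. Fbrs (chromosome 7, 127478415 to 127491513) has Prr14 only 1647 bases away. Prr14 averaged 99.7 RPKM in TKO, 84.8 in DKO and 94.2 in WT, a change of 0.08 in TKO against WT (limma adjusted p = 0.296) and of 0.23 against DKO (limma adjusted p = 0.0119). Beside Fbrsl1, Galnt9 was higher in TKO than in DKO (0.63 ± 0.17, limma adjusted p = 0.0122) and Lrcol1 was higher in PRC1-CD than in PRC1-WT (0.93 ± 0.24, limma adjusted p = 0.0328). Of the neighbours of Pcgf3, Cplx1 did not pass the filter on low values, and Mfsd7a passed it in morulae and was called in none of those comparisons. Galnt17 and Castor2, the neighbours of Auts2, were not analysed here. The library kit does not keep the strand, so reads of the pseudogene Gm9042, which lies within Pcgf5, of the lncRNA 4930563F08Rik within Auts2 and of Mir7060 within Fbrs cannot be separated by strand.

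Across the 5 comparisons of a mutant with its control, the gene whose log2 changes came nearest to those of Pcgf5 among 9151 others was Zfp362, a zinc finger gene, with a root-mean-square difference of 0.118. Its changes were 1.27 in PRC1-CD, 1.24 in DKO and 0.47 in TKO oocytes and -0.16 and 0.14 in matDKO and matTKO morulae. Tmeff1 and Cep78 came next. Nearest to Fbrs were Khsrp, Rpl8 and Trim28, with changes of 0.94, 0.95 and 0.94 in TKO oocytes. Lonp1, Ofd1 and Xpo6 were nearest to Fbrsl1. The DKO and TKO comparisons share their WT libraries, as do both morula comparisons, so likeness over these 5 is a description.

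In morulae with maternal deletion none of the 5 genes passed the test in any of the 3 comparisons, and 0 of 5 had an unadjusted p under 0.05 in limma. Few genes at all were called, 1.74% of 13056 tested in matDKO against WT, 0.567% in matTKO against WT and 0.0689% in matTKO against matDKO. Pcgf5 was at 18.07 to 42.55 TPM in matDKO (median 27.73), 16.31 to 55.52 in matTKO (median 33.97) and 7.28 to 41.70 in WT morulae (median 30.87). The 3 groups covered much the same range. The log2 change was -0.10 in matDKO, with a 95% interval of -0.58 to 0.39, and 0.19 in matTKO, with an interval of -0.30 to 0.67. The matDKO interval ends below the 0.99 seen in DKO oocytes, while the matTKO interval includes the 0.43 seen in TKO oocytes. The tables were scaled separately and the stages were not tested against each other.

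**Figure D5:**
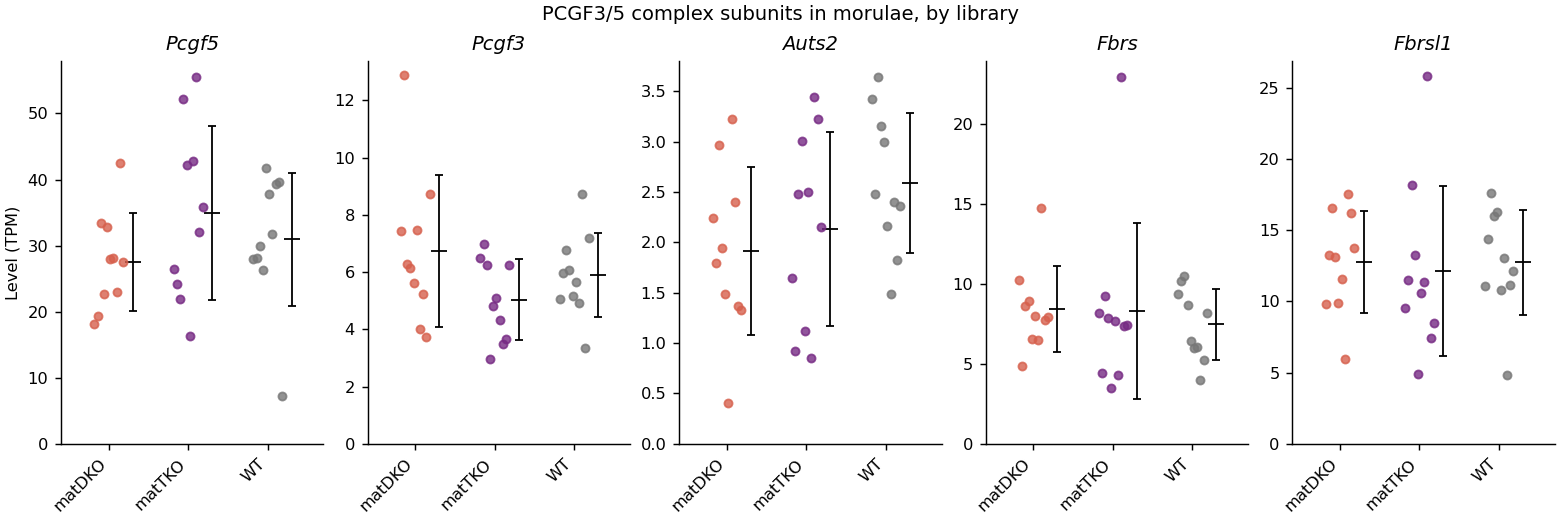
Levels in TPM (vertical axes, from 0) of the 5 genes in each morula library, 1 panel per gene, with matDKO, matTKO and WT morulae from left to right. Points are libraries, and the short horizontal marks with whiskers are group means with SD; all groups overlap in all 5 genes, and WT replicate 10 lies at 7.28 TPM for Pcgf5.

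Pcgf3 ranged from 3.72 to 12.88 TPM in matDKO (median 6.21), 2.95 to 7.0 in matTKO (median 4.95) and 3.34 to 8.73 in WT morulae (median 5.81). Auts2 was lowest of the 5 in every group, with medians of 1.87 TPM in matDKO, 2.31 in matTKO and 2.44 in WT, and its log2 change of -0.34 in matDKO had an interval of -0.74 to 0.07. Fbrs and Fbrsl1 had medians of 7.55 and 11.0 TPM in matTKO against 7.30 and 12.6 in WT morulae. Both are alternative subunits called higher in TKO than in WT oocytes, though the Fbrsl1 call was lost in 7 of 14 other settings. The medians of these 2 in matDKO were 7.95 and 13.2 TPM. With the 5 low-correlation libraries left out, a choice made after seeing the data, 0 of 5 genes were called too.

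Of the 12 partners, 1 was called in matDKO morulae, beside 1.74% of all genes, and 0 in matTKO, beside 0.567%, where 4 had an unadjusted p under 0.05 in limma. Yaf2, the relative of Rybp that takes its place in some complexes, averaged 1.68 ± 0.789 TPM in matDKO, 3.16 ± 1.20 in matTKO and 6.14 ± 2.72 in WT morulae (SD, n = 10 each). It ranged from 0.39 to 3.37 in matDKO and from 0.91 to 10.52 in WT, which overlap. The log2 change was -1.34 ± 0.25 in matDKO (limma adjusted p = 0.00329), while in matTKO that of -0.71 did not pass (limma adjusted p = 0.196) and the difference between matTKO and matDKO, 0.63, did not either (limma adjusted p = 0.579). In the oocytes Yaf2 averaged 20.4 RPKM in DKO, 14.8 in TKO and 18.2 in WT, with no call against WT.

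Side by side, and with no test since the tables were scaled separately, wild-type morulae and wild-type oocytes differed in which members led. With every oocyte library rescaled to the total that TPM libraries share, Pcgf5 stood at 31.0 in WT morulae and 9.26 in WT oocytes, while Pcgf3 stood at 5.89 in WT morulae and 9.50 in WT oocytes. Auts2 was at 2.60 in morulae and 14.5 in oocytes. Fbrsl1 was at 12.8 in morulae and 25.1 in oocytes, and Fbrs at 7.47 in morulae and 5.32 in oocytes. In WT morulae 74.6% of tested genes lay below Pcgf5 and 23.9% below Auts2. Pcgf5 thereby had the highest level of the 5 in morulae and Fbrsl1 in oocytes, on values scaled to length. The pair of Pcgf3 and Pcgf5 made up 42.0% ± 7.23 of the PCGF sum in matDKO, 43.9% ± 8.26 in matTKO and 36.1% ± 8.35 in WT morulae (SD, n = 10 each), against 0.921% in WT oocytes.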

How the data were processed

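The members were set by symbol, and the members, lists and comparisons were chosen with earlier results of these data known. Per the labels' protocols, cDNA was made with the SMART-Seq v4 kit and libraries with Nextera XT. The submitters' processing notes name STAR 2.7.3, STAR 2.7.6, RSEM 1.3.1, featureCounts 1.6.0, Trim Galore 0.6.4 and the builds GRCm38 and mm10, without tying a tool to a table. The deposited values of both oocyte tables are RPKM made by the authors. The deposited morula table carries that name too, but its libraries sum to 999421 to 999922, so its values were taken as TPM by the authors. The lowest values do not step by whole reads, so no depth or counting interval is given. Names turned into dates, 27 in either oocyte table, were dropped.

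Groups came from the sample titles. Tests were two-sided and used limma 3.58.1 (R 4.3.3; lmFit, eBayes with trend) on log2(value + 1), adjusted by Benjamini-Hochberg over every gene whose mean reached 1 in any group of the table. The spread was estimated over all groups of a table. Tests stayed within a table. The procedure was also run on simulated data for the first comparison of each table, with independent noise and few changed genes. That setting differs from the oocyte data, its outcome is not reported here, and no result rests on it. Alternatives were a pseudocount of 0.1, no filter or a filter at 5, quantile and median-ratio scaling, a fit of only the groups compared, the replicate number as a block, and leaving out libraries. Named genes were the 5 members, the other PCGF genes, 12 partners, chromosome neighbours and the 3 genes most like each called member over the 5 comparisons of a mutant with its control; those most like Auts2 are not reported here. In all, 7 comparisons were made in 3 tables. Sequences and coordinates are from RefSeq GRCm38.p6. Nothing in the labels ties replicates to separate females, so the p-values cover only a spread between libraries that may be technical.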

Additional observations from a re-analysis of the deposited data

Results flagged for a closer look

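In groups of 4 to 10 libraries, a library was picked out where its gap to the nearest other one was a large part of the group's whole range (Dixon's 95% limit). Of 63 combinations of a gene and a morula group, 5 had such a library, and chance flags about 1 in 20 groups. Pcgf5 stood at 7.28 TPM in WT replicate 10, far below the other WT morulae. Without that library, an alternative chosen after seeing the data, the log2 change of Pcgf5 in matTKO against WT was -0.02 (limma adjusted p = 0.98) in place of 0.19. Fbrs stood at 22.93 TPM in matTKO replicate 8, far above the rest of its group, and this library is among the 5 with a low correlation to the table's median profile. Fbrsl1 stood at 4.82 TPM in WT replicate 8, the lowest of its group. Among the partners, Rnf2 stood at 8.98 TPM in matTKO replicate 9 and Usf1 at 54.76 TPM in WT replicate 1.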

How the results depend on the processing

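The calls of Pcgf5 in DKO against WT and TKO against DKO, of Fbrs in TKO against WT and against DKO, and of Fbrsl1 in TKO against DKO held under all 14 other settings. Pcgf5 in PRC1-CD ranged from 1.055 to 1.397 with a library left out and was lost in 1 of 4 such fits. With a library left out, the change of Fbrsl1 in DKO ranged from -0.402 to -0.268 and those against WT in TKO from 0.301 to 0.562 for Pcgf5, 0.239 to 0.379 for Fbrsl1 and -0.449 to -0.221 for Auts2; each of these was lost in 4 of 6 such fits. Without the filter on low values, Fbrsl1 in DKO (-0.329, adjusted p = 0.0614 in limma), Pcgf5 in TKO (0.432, 0.0571) and Auts2 in TKO (-0.354, 0.0618) were lost. Quantile scaling lost Pcgf5 (0.342) and Fbrsl1 (0.238) in TKO, and median-ratio scaling lost both too (0.333 and 0.205). The fit of only the groups compared lost Auts2 in TKO (-0.354, 0.0551). The causes were not tested.

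Uncalled changes that turned sign were Pcgf3 in TKO against WT (-0.046 with quantile and -0.062 with median-ratio scaling, -0.010 to 0.087 with a library left out), Pcgf3 in DKO (-0.067 to 0.030), Auts2 and Fbrs in PRC1-CD (-0.268 to 0.036 and -0.312 to 0.176), Pcgf5 in matDKO with quantile scaling (0.017), Fbrs in matTKO without the 5 low-correlation libraries (-0.166) and Pcgf5 in matTKO without WT replicate 10 (-0.018).

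Whether the replicate numbers pair the samples was not settled. Same-number correlations were 0.088 in the catalytic-dead set, -0.048 to 0.109 in the knockout oocytes and -0.167 to 0.569 in morulae. The library of the same number was the best match for 1 of 3 in each knockout oocyte comparison. In morulae it was so for 1 of 10 in matDKO against WT and 4 of 10 in both matTKO comparisons. In PRC1-CD it was so for 2 of 2, where both or neither must match. With the number as a block, Fbrsl1 was lost in DKO (-0.329, 0.0687) and TKO (0.312, 0.0524), and the genes called in matDKO, matTKO and matTKO against matDKO numbered 607, 183 and 16, against 227, 74 and 9 without it.

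Genes called in PRC1-CD numbered 3059, or 1664 with a filter at 5 and 1238 to 1543 with a library left out. In DKO they numbered 3701, or 2421 to 2947 with a library left out. In matTKO against WT they numbered 21 with a pseudocount of 0.1, 32 without a filter, 137 with quantile scaling, 127 with only both groups fitted and 272 without the 5 libraries. In matDKO they numbered 93 without a filter. In matTKO against matDKO they numbered 5 without a filter, 1 with a filter at 5, 4 with only both groups fitted and 15 without the 5 libraries. Quantile scaling moved the median change of all genes in PRC1-CD to -0.08 and the share of calls that were higher to 51.1%, beside 0.04 and 75.5%; in DKO that share was 47.3% beside 60.8%, in TKO median-ratio scaling gave 49.0% beside 60.8%, and in matDKO and matTKO quantile scaling gave 40.4% and 43.8% beside 18.9% and 31.1%. Depth is unknown, so it sets no limit that can be stated.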
